A study of Mus musculus with 28 samples.

Results

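Kinesins are motor proteins that walk along microtubules, and the kinesin genes measured here are the coding genes whose symbol is Kif or Klc followed by a number. The deposited tables list 34 of them among 14711 genes, 33 of them in every table. The conventional kinesin motor is built of heavy chains, which hold the ATP-driven motor domain, and light chains, which bind cargo. In neurons, kinesins of the families 1, 2 and 3 carry vesicles, mitochondria and receptors into axons and dendrites. Other families move chromosomes and shape the spindle in dividing cells, shorten or stabilise microtubules, or act in cilia.

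RNA was measured in hippocampal CA1 of C57BL/6 mice aged 3 to 4 weeks that carried an HA tag on the ribosomal protein Rpl22, released by Cre. The driver was CaMK2a-Cre, active in excitatory forebrain neurons, or PV-Cre, active in parvalbumin interneurons, and all mice in all groups carried LSL-Rpl22-HA. Mice received kainic acid, a glutamate receptor agonist that triggers seizures, or PBS, and the protocol places tissue collection 6 h after injection, while the deposited column names mark the PBS libraries with an earlier time. Each lysate pool gave an anti-HA immunoprecipitate (IP, RNA on tagged ribosomes) and an input library, with 3 pools of 4 mice per group in the CaMK2a line and 4 pools of 9 to 10 mice in the PV line. This gives 8 groups and 28 libraries of 6061405 to 15847462 counts summed over genes. Whether IP libraries hold their target cells was checked on marker genes. Summed CA1 pyramidal markers were at 9820 to 11300 CPM (counts scaled to library size and TMM factors) in CaMK2a IP after PBS against 8340 to 9460 in its input, and PV interneuron markers were at 3220 to 4240 CPM in PV IP against 1010 to 1170 in input. In CaMK2a IP 4 of the 5 pyramidal markers passed as higher than input and 1 as lower (edgeR adjusted p under 0.05). The shares over all genes were 32.6% and 31.6%. In PV IP 6 of the 7 interneuron markers passed as higher and 0 as lower, beside 10.6% and 7.98% of all genes. The PV IP libraries also held 4180 to 5280 CPM of the 5 pyramidal markers and 4190 to 5970 CPM of the 4 astrocyte markers. The pools are the replicates, and fewer cells of a type cannot be told apart from less RNA per cell.

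The kinesin genes span a wide range of levels. Scaled to listed length, Kif5a led with a mean over the 8 groups of 255.2 CPM per kb, followed by Kif1a at 208.0, Kif5c at 193.4, Kif1b at 97.1 and Klc1 at 64.4. These are 2 heavy chains of kinesin-1, the 2 main motors of synaptic vesicle precursors in kinesin-3, and the kinesin-1 light chain of the nervous system. Kif21a, Kif3a, Kif5b, Kif3c and Kif2a followed at 60.7, 53.2, 40.7, 40.1 and 35.1 CPM per kb. The next gene, Kif17, a dendritic motor of NMDA receptor vesicles, stood at 4.10 CPM per kb. On the scale of CPM, 10 members had a mean of at least 100 over the libraries, 5 had 10 to 100, and 19 had less than 10. The 5 leading genes held 70.3% ± 0.645 (SD, n = 3) of the summed CPM per kb of 33 kinesin genes in CaMK2a IP and 81.0% ± 0.426 in CaMK2a input after PBS. They held 72.6% ± 1.88 (SD, n = 4) in PV IP and 78.3% ± 2.05 in PV input. Motors of cell division were low: Kif20a at 2.338, Kif18a at 0.720, Kif4 at 0.608, Kif22 at 0.509 and Kif11 at 0.485 CPM per kb. Kif18b, Kif23, Kif20b, Kif14 and Kif2c were at 0.178, 0.129, 0.0996, 0.0861 and 0.0504 CPM per kb. Kif20a shares 1271 exonic bases with Cdc23 on the opposite strand.

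**Figure D1:**
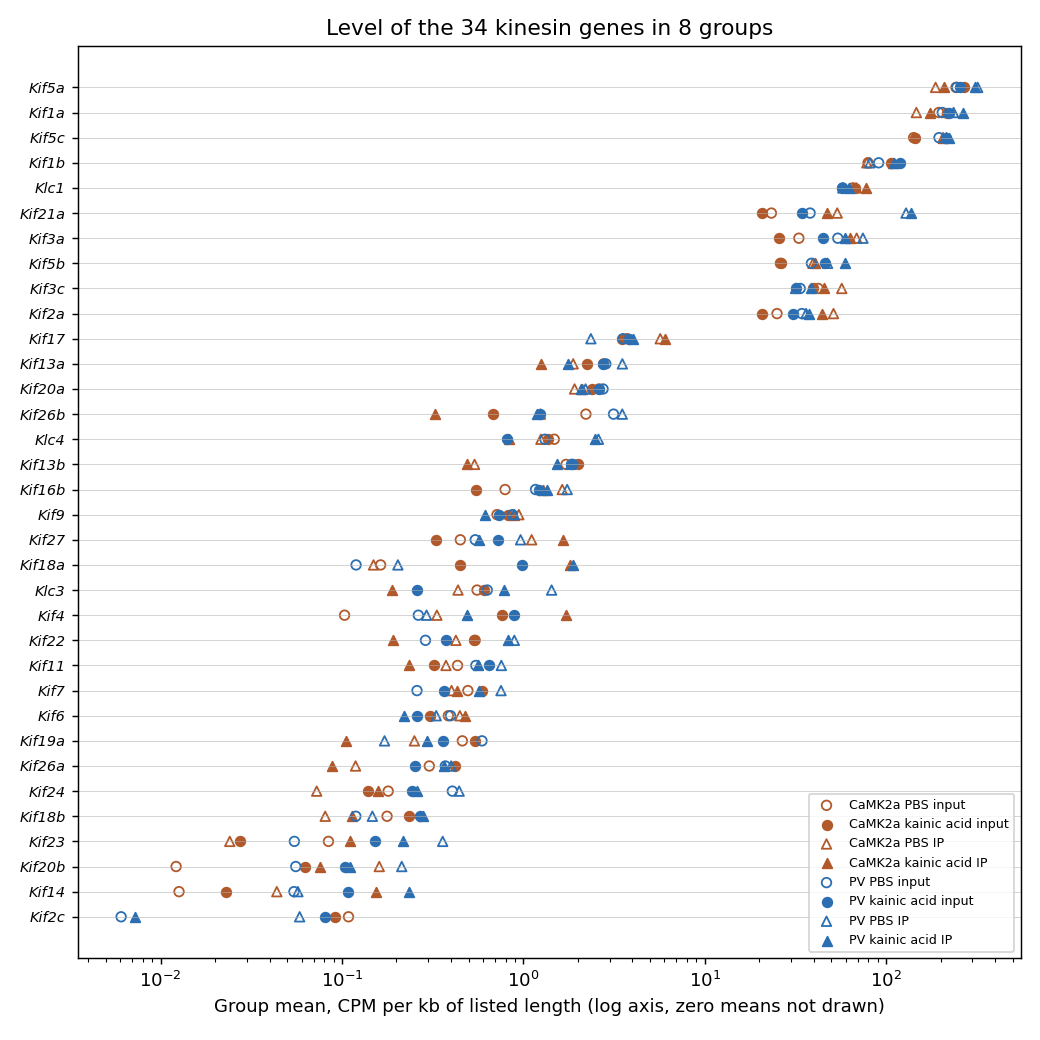
Group means of the 34 kinesin genes (rows, ordered by their mean over the groups) in CPM per kb of listed length on a log axis, with 1 marker for each of the 8 groups and means of 0 left out. The 10 genes from Kif5a to Kif2a stand apart from the rest, and Kif26b, Kif18a and Kif4 have wide spreads between groups.

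Kif26b, an atypical kinesin that binds microtubules without motor activity and acts in adhesion and polarity of developing cells, was lower after kainic acid in all 4 comparisons. The gene lies on chromosome 1 (mm10, 178529125 to 178939200, plus strand), and 909 of its exonic bases are shared with the opposite-strand gene Gm16564. In CaMK2a IP the 3 PBS libraries held 17.1, 21.2 and 14.8 CPM and the 3 kainic acid libraries 5.69, 3.67 and 4.51 CPM. In CaMK2a input the PBS libraries held 36.8, 30.8 and 27.1 CPM and the kainic acid libraries 9.66, 11.2 and 8.28 CPM. Every kainic acid library was below every PBS library in both fractions.

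In PV IP, Kif26b was at 44.8, 42.3, 75.8 and 37.3 CPM after PBS and at 24.2, 13.9, 14.5 and 15.5 CPM after kainic acid. In PV input it was at 48.6, 51.3, 47.3 and 32.1 CPM after PBS and at 15.5, 12.1, 25.9 and 16.6 CPM after kainic acid. Again the groups did not overlap. The log2 fold change was -1.93 ± 0.23 (SE) in CaMK2a IP (edgeR quasi-likelihood test, adjusted p = 2e-04) and -1.69 ± 0.18 in CaMK2a input (adjusted p = 7.4e-07). It was -1.58 ± 0.30 in PV IP (adjusted p = 0.0041) and -1.38 ± 0.24 in PV input (adjusted p = 0.003). These are falls of 3.81-fold, 3.24-fold, 2.99-fold and 2.61-fold. With any single library left out the log2 fold change of Kif26b stayed between -2.10 and -1.24 over the 4 comparisons, and the call was kept each time. The difference between the effects in CaMK2a IP and PV IP was -0.35 ± 0.42 on the log2 scale (adjusted p = 0.98).

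**Figure D2:**
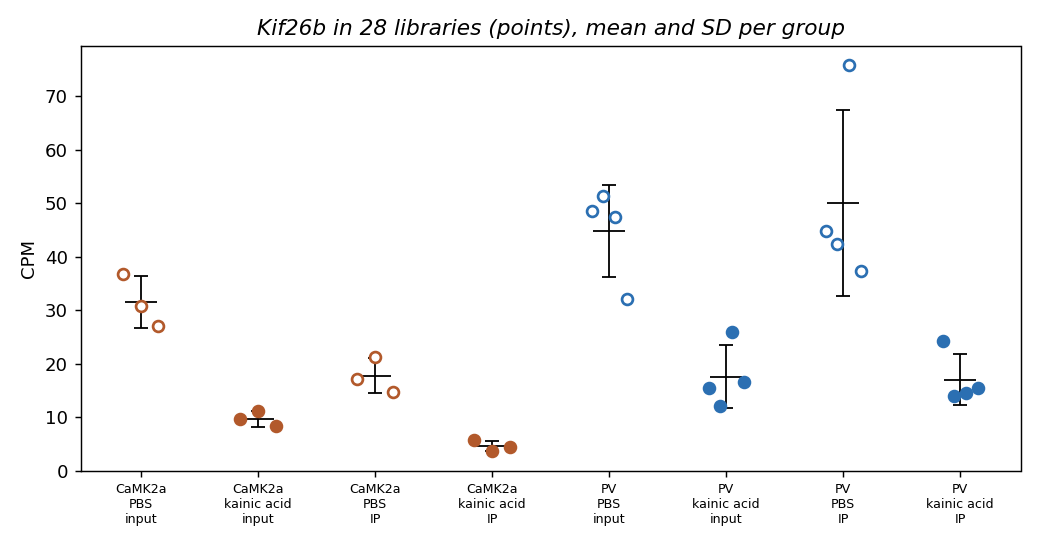
Kif26b in CPM (vertical axis) in each of the 28 libraries (points, open after PBS and filled after kainic acid) by group, with the mean and SD. The kainic acid libraries lie at 3.67 to 25.9 CPM, each below all PBS libraries of its own fraction and line.

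The 250 bases before the annotated starts of Kif26b and Kif1b are shown because Kif26b fell in 4 comparisons after kainic acid and Kif1b rose in 3. Kif4 also rose in 3, and its window, which overlaps exons of Pdzd11, is not shown. Both windows are from RefSeq (GRCm38.p6): Kif26b at chr1:178528875-178529124 on the plus strand and Kif1b at chr4:149307734-149307983 on the minus strand. Capitals mark TGACG, the core of the cAMP response element (CRE), on either strand.
Kif26b: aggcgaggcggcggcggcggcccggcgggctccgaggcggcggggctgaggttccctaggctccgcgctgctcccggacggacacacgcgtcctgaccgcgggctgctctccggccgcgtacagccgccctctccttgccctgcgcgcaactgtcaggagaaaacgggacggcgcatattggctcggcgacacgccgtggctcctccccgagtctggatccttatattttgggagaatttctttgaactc
Kif1b: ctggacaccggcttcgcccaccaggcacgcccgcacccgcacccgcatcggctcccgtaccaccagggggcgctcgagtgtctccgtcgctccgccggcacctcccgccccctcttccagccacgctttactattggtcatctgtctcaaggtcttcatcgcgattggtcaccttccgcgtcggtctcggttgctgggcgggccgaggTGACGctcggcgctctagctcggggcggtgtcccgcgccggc
Kif1b holds TGACG 1 time, and Kif26b does not hold these letters in this window. Neither window holds the full CRE TGACGTCA, which contains TGACG, or the AP-1 motif TGANTCA on either strand. In all, 33 windows of 29 kinesin genes were searched, with more than 1 window for some genes. Kif5b and Kif20a were among those not searched. TGACG was found in 13 windows of 12 genes, TGACGTCA in 3 (Kif5c, Kif17 and Klc1) and TGANTCA in 0. The other Kif1b window, at chr4:149307699-149307948, overlaps the one shown and also holds TGACG 1 time. Of 32851 RefSeq promoter windows of the same length, 17.8% hold TGACG, 1.55% hold TGACGTCA and 6.75% hold TGANTCA. GC content was 68.4% in the Kif26b window and 70.0% in the Kif1b window.

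Across the kinesin genes, a minority passed the test after kainic acid in each fraction. In CaMK2a IP 5 of 25 members tested rose and 2 fell, where 19.8% of all genes tested rose and 15.3% fell. In CaMK2a input 2 of 26 rose and 3 fell, where 19.3% and 15.7% of all genes did. In PV IP 0 of 29 rose and 1 fell (4.05% and 0.801% of all genes), and in PV input 3 of 28 rose and 1 fell (8.21% and 3.36%). These counts are from the main test, which used no block. In PV input the pools were taken as paired by replicate number, from correlations in the counts. With that number as a block 3 members were higher and 2 lower. Over all genes the block gave 1835 higher and 1590 lower in place of 915 and 374. The median log2 fold change of the tested members was -0.03 in CaMK2a input, -0.11 in PV IP and -0.07 in PV input, beside -0.02 for all genes in each, and it lay within 0.01 of 0 for both in CaMK2a IP. The shares are near or under those of all genes in CaMK2a IP and input. The spread between pools differed: the common biological coefficient of variation was 14.8% in CaMK2a IP, 12.6% in CaMK2a input, 44.3% in PV IP and 27.2% in PV input.

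**Figure D3:**
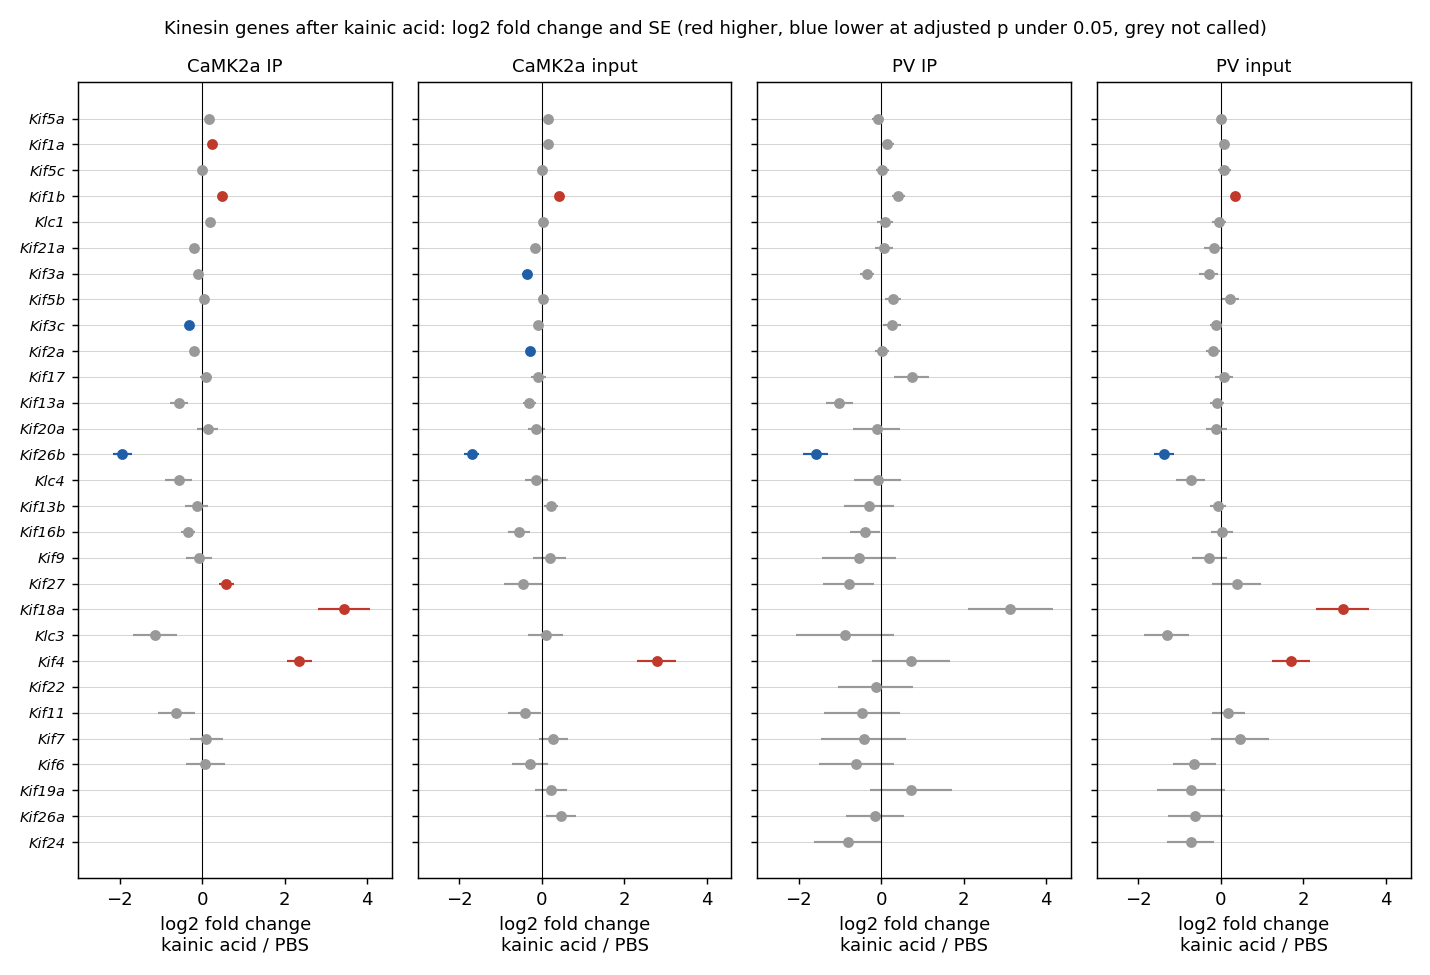
Log2 fold change after kainic acid (horizontal axis, with SE) of the kinesin genes tested in each of 4 fractions, ordered by level. Kif26b is lower in all 4 panels, Kif1b lies near 0.4 in each, and Kif4 and Kif18a have the highest values.

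The heavy and light chains of kinesin-1 did not pass the test after kainic acid. Kif5a, the neuronal heavy chain that carries neurofilaments, was at 1332, 1401 and 1295 CPM in CaMK2a IP after PBS and at 1606, 1325 and 1542 CPM after kainic acid, so the groups overlapped. Its log2 fold change was 0.16 ± 0.09 (SE, adjusted p = 0.2) in CaMK2a IP and -0.08 ± 0.15 (adjusted p = 0.86) in PV IP. Kif5c, also neuronal, had 0.00 ± 0.07 in CaMK2a IP and 0.03 ± 0.16 in PV IP. Kif5b, the heavy chain expressed in most cell types, had 0.05 ± 0.08 and 0.29 ± 0.20, and with PV replicates 1 to 3 only it passed in PV input at 0.26 (adjusted p = 0.027). Without CaMK2a kainic acid IP replicate 2, Kif5a passed at 0.23 (adjusted p = 0.024). Among the light chains, Klc1 had 0.19 ± 0.10 in CaMK2a IP and 0.10 ± 0.20 in PV IP, and Klc3 and Klc4 passed in none of the 4 comparisons.

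In kinesin-2, which carries cargo into cilia and dendrites, 2 changes passed and both were small falls. Kif3c was at 399, 376 and 398 CPM in CaMK2a IP after PBS and at 319, 329 and 292 CPM after kainic acid, without overlap. Its log2 fold change was -0.31 ± 0.08 (SE, adjusted p = 0.015). That call was lost without kainic acid replicate 3, PBS replicate 1 or PBS replicate 3, with adjusted p of 0.052, 0.071 and 0.067. Kif3c shares 3016 exonic bases with opposite-strand genes.

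Kif3a, the obligate partner of the kinesin-2 heterodimers, fell in CaMK2a input at -0.36 ± 0.12 (SE, adjusted p = 0.025). Its PBS libraries held 217, 192 and 185 CPM and its kainic acid libraries 147, 186 and 128 CPM, so the groups overlapped at 1 pair of libraries. Leaving out kainic acid replicates 1 or 3, or PBS replicates 1 or 2, ended the call (adjusted p 0.086, 0.073, 0.14 and 0.054). In PV input Kif3a had -0.29 ± 0.23 (adjusted p = 0.47), and with the replicate number as a block -0.31 (adjusted p = 0.0032). With PV replicates 1 to 3 only it passed in PV input at -0.26 (adjusted p = 0.026) and in PV IP at -0.48 (adjusted p = 0.025). Kif17 passed in no fraction, with 0.09 ± 0.15 in CaMK2a IP and 0.75 ± 0.43 in PV IP.

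Kif1b of kinesin-3 (chromosome 4, 149176319 to 149307739, minus strand), a motor of mitochondria and synaptic vesicle precursors, was higher after kainic acid in 3 of 4 comparisons. In CaMK2a IP it was at 1190, 1138 and 1213 CPM after PBS and at 1795, 1592 and 1535 CPM after kainic acid, and in CaMK2a input at 1229, 1162 and 1202 CPM and 1729, 1571 and 1497 CPM. The log2 fold change was 0.48 ± 0.08 (SE, adjusted p = 0.0017) in CaMK2a IP and 0.42 ± 0.09 (adjusted p = 0.0017) in CaMK2a input. The PV libraries showed similar levels: in PV input 1394, 1374, 1315 and 1402 CPM after PBS and 1718, 1825, 1806 and 1825 CPM after kainic acid. In PV IP Kif1b was at 1365, 1275, 1201 and 1066 CPM after PBS and at 1669, 1720, 1829 and 1448 CPM after kainic acid. No fraction overlapped.

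The change of Kif1b in PV input was 0.36 ± 0.10 (SE, adjusted p = 0.047), and it was lost with relative log expression factors (0.052), upper-quartile factors (0.075), no filter on low counts (0.068), and without PV input replicate 1, 2 or 3 of either treatment (adjusted p 0.086 to 0.14). With the replicate number as a block it was 0.36 with adjusted p = 5.1e-05. In PV IP it was 0.42 ± 0.16 (adjusted p = 0.18), and without PV kainic acid IP replicate 4 it passed at 0.47 (adjusted p = 0.045). The difference between CaMK2a IP and PV IP effects of Kif1b was 0.06 ± 0.18.

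Kif1a, the other main vesicle motor of kinesin-3, rose in CaMK2a IP. Its PBS libraries held 1314, 1220 and 1274 CPM and its kainic acid libraries 1487, 1507 and 1510 CPM. The log2 fold change was 0.25 ± 0.07 (SE, adjusted p = 0.02), and the call was lost with upper-quartile factors (0.15, adjusted p = 0.11) and without kainic acid replicate 3 or any PBS replicate of that fraction (adjusted p 0.058 to 0.089). Kif1a was at 0.16 ± 0.09 in CaMK2a input, 0.15 ± 0.15 in PV IP and 0.09 ± 0.11 in PV input, none of which passed; without CaMK2a kainic acid input replicate 2 it passed in CaMK2a input at 0.23 (adjusted p = 0.039). Kif13a, which carries endosomal cargo, had negative values in all 4 fractions without passing. Its log2 fold change was -0.57 ± 0.22 (adjusted p = 0.068) in CaMK2a IP and -1.01 ± 0.32 (adjusted p = 0.096) in PV IP. It passed in CaMK2a IP without kainic acid replicate 2 at -0.65 (adjusted p = 0.049), and in PV IP with DESeq2 at -1.01 (adjusted p = 0.037). Kif13b and Kif16b passed in none of the 4.

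Kif4 and Kif18a are motors known from chromosome condensation and spindle dynamics in dividing cells. They had the highest fold changes after kainic acid in the fractions where they passed, from very low levels. Kif18a in CaMK2a IP, PV IP and PV input and Kif4 in CaMK2a input met the count filter only through their kainic acid libraries. A rise was there a condition of being tested, so the size and p-value of these changes are not independent of the filter. Kif4 was at 1.86, 1.80 and 1.36 CPM in CaMK2a IP after PBS and at 7.41, 7.44 and 10.9 CPM after kainic acid, from 57 and 225 counts in all. Its log2 fold change was 2.36 ± 0.30 (SE, adjusted p = 0.00028), or 5.12-fold. In CaMK2a input it was at 0.749, 0.543 and 0.264 CPM after PBS and at 2.50, 4.61 and 4.45 CPM after kainic acid, a log2 fold change of 2.79 ± 0.48 (adjusted p = 0.00019). The groups did not overlap in either fraction.

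In PV input Kif4 was at 1.35, 1.58, 1.25 and 1.11 CPM after PBS and at 6.98, 3.96, 5.03 and 1.91 CPM after kainic acid, with a log2 fold change of 1.71 ± 0.46 (SE, adjusted p = 0.032). This call was lost without any 1 of 7 of the 8 libraries, all but kainic acid replicate 4 (adjusted p 0.061 to 0.11). In PV IP Kif4 was at 0.592, 0.704, 3.86 and 0.720 CPM after PBS and at 1.83, 0.564, 5.20 and 2.29 CPM after kainic acid. The PV IP groups overlapped, with 0.73 ± 0.95 (adjusted p = 0.78). Kif4 lies on chromosome X (100626065 to 100727271, plus strand) and shares 832 exonic bases with Pdzd11 on the opposite strand. Pdzd11 itself had -0.31 ± 0.14 (adjusted p = 0.12) in CaMK2a IP and 0.04 ± 0.12 (adjusted p = 0.84) in CaMK2a input.

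Kif18a was at 1.03, 0.386 and 0.0973 CPM in CaMK2a IP after PBS and at 5.56, 3.22 and 9.55 CPM after kainic acid, from 20 and 160 counts. Its log2 fold change was 3.43 ± 0.63 (SE, adjusted p = 0.0024), or 10.8-fold. Without PBS replicate 1 it was 4.69 (adjusted p = 0.0036). In PV input it was at 0.112, 0.845, 0.342 and 0.317 CPM after PBS and at 5.17, 4.08, 1.51 and 2.46 CPM after kainic acid, with 2.96 ± 0.64 (adjusted p = 0.01), and 3.56 (adjusted p = 0.012) without PBS replicate 2. In PV IP the 4 PBS libraries held 0.508, 0.0783, 0 and 2.16 CPM and the kainic acid libraries 9.25, 4.42, 4.90 and 6.81 CPM, without overlap, yet 3.13 ± 1.04 did not pass (adjusted p = 0.11). Without PBS replicate 4 the PV IP value was 4.95 (adjusted p = 0.019). In CaMK2a input, where Kif18a had too few counts to be tested, it was at 0.583, 0.543 and 0.529 CPM after PBS and at 2.03, 1.43 and 1.07 CPM after kainic acid. Kif18a lies on chromosome 2 (109280738 to 109341749, plus strand) and shares 11 exonic bases with Mettl15, which had -0.56 ± 0.31 (adjusted p = 0.19) in CaMK2a IP.

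Markers of dividing cells were measured beside Kif4 and Kif18a. The 6 markers summed to 2.31 to 3.09 CPM in CaMK2a IP after PBS and to 1.29 to 3.97 CPM after kainic acid, with Cdk1 at 0 or not listed in both. In CaMK2a input they summed to 4.08 to 5.82 CPM after PBS and 4.29 to 4.72 CPM after kainic acid. In PV input the sums were 4.2 to 11.1 and 7.64 to 23.8 CPM, and in PV IP 14.6 to 24.4 and 17.3 to 46.5 CPM. Of the markers with enough counts to be tested after kainic acid, 0 of 1 passed in CaMK2a IP and 0 of 2 in each input. Kif11, the motor that separates spindle poles, did not pass, with -0.62 ± 0.45 (SE, adjusted p = 0.31) in CaMK2a IP and 0.19 ± 0.41 (adjusted p = 0.83) in PV input. Endothelial markers went from 25.6 to 33.1 CPM to 52.5 to 72.1 CPM in CaMK2a input, where 4 of 4 passed as higher. In PV input they went from 15.5 to 31.4 CPM to 39.0 to 60.2 CPM, where 2 of 4 did. Other lists moved as well. In CaMK2a input 4 of 7 PV interneuron, 2 of 4 astrocyte and 2 of 6 microglial markers rose. There 1 microglial and 2 of 5 pyramidal markers fell, beside 19.3% of all genes rising and 15.7% falling. In PV input 1 of 7 PV interneuron markers rose, and 1 microglial and 1 pyramidal marker fell, beside 8.21% and 3.36% of all genes. The IP libraries moved too. In CaMK2a IP 3 of 7 PV interneuron and 2 of 5 microglial markers rose and 2 of 5 pyramidal markers fell, beside 19.8% and 15.3% of all genes. Summed pyramidal markers went there from 9820 to 11300 CPM to 7900 to 9290 CPM, and PV interneuron markers from 193 to 246 CPM to 299 to 424 CPM. In PV IP 1 of 7 PV interneuron markers rose and 1 of 5 pyramidal markers fell, beside 4.05% and 0.801% of all genes. The part of these markers in the changes was not tested.

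**Figure D4:**
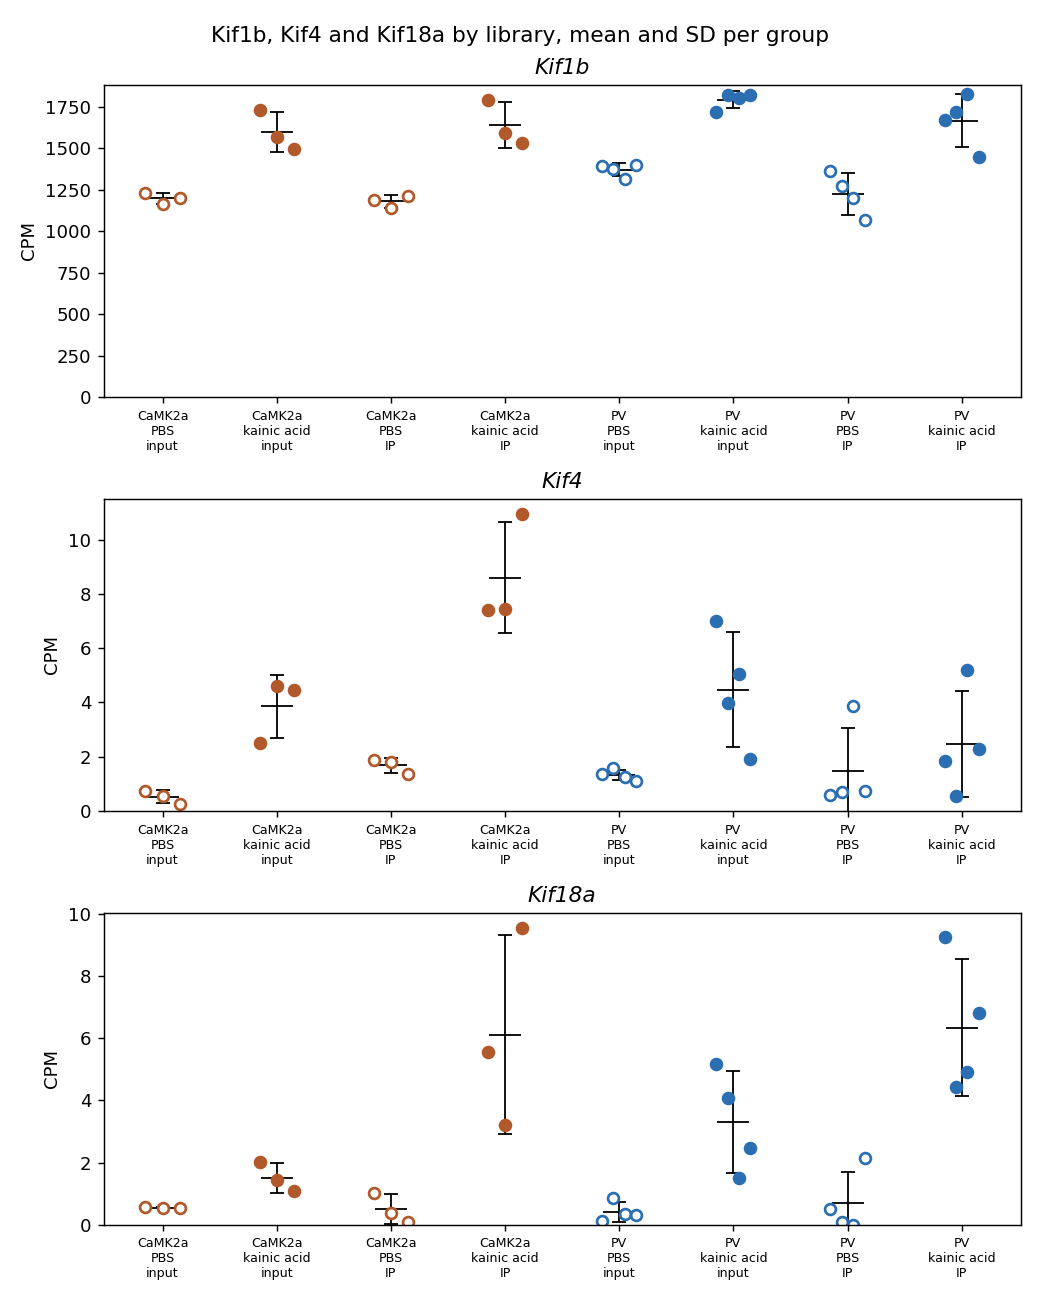
Kif1b, Kif4 and Kif18a in CPM (vertical axes from 0) in each library (points, open after PBS and filled after kainic acid) by group, with the mean and SD, where bars reaching under 0 are cut at the axis. Kif1b moves from about 1066 to 1402 CPM to 1448 to 1829 CPM, and Kif4 in PV IP is the 1 pair of groups that overlaps.

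Kif27, a kinesin-4 member linked to motile cilia, rose in CaMK2a IP from 8.17, 9.39 and 9.83 CPM to 12.0, 15.7 and 12.99 CPM, with a log2 fold change of 0.59 ± 0.18 (SE, adjusted p = 0.032). The call was lost with upper-quartile factors (0.49, adjusted p = 0.061) and without kainic acid replicates 2 or 3 or any PBS replicate (adjusted p 0.069 to 0.13). Kif27 shares 332 exonic bases with Gm26555 on the opposite strand. Kif21a, another kinesin-4 motor, which slows microtubule growth, did not pass in any fraction, except without CaMK2a kainic acid IP replicate 1 (-0.30, adjusted p = 0.017) or without CaMK2a kainic acid input replicate 2 (-0.25, adjusted p = 0.049). Kif2a, a kinesin-13 member that takes microtubules apart, fell in CaMK2a input from 120, 117 and 114 CPM to 94.5, 103 and 91.4 CPM, at -0.28 ± 0.10 (adjusted p = 0.038). Leaving out any 1 of 5 of the 6 libraries, all but kainic acid replicate 2, ended that call (adjusted p 0.052 to 0.15). In CaMK2a IP it had -0.20 ± 0.09 (adjusted p = 0.11) and passed without kainic acid replicate 2 at -0.28 (adjusted p = 0.024). Kif2a shares 1229 exonic bases with Dimt1, which had -0.26 ± 0.20 (adjusted p = 0.34) in CaMK2a input. Kif26a, the paralog of Kif26b, was at 0.48 ± 0.36 in CaMK2a input, -0.15 ± 0.70 in PV IP and -0.61 ± 0.66 in PV input, and passed in none of these 3.

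With upper-quartile factors the median of all genes in CaMK2a IP moved to -0.09, and the split of kinesin genes became 3 higher and 4 lower. Kif13a (-0.67, adjusted p = 0.037) and Kif2a (-0.30, adjusted p = 0.023) then passed as lower while Kif1a and Kif27 no longer passed. Over all genes the share of higher among those called went from 56.4% to 42.4% in CaMK2a IP and from 55.1% to 45.8% in CaMK2a input.

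The effects of kainic acid in CaMK2a IP and PV IP were compared for 33 kinesin genes, and 0 differed by edgeR or by DESeq2, with 0 at an unadjusted p under 0.05. Of all genes 0.0679% were higher and 0.0255% lower in this comparison, so few genes of any kind passed.

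The IP was compared with input to see which kinesin RNAs are on tagged ribosomes of each cell type. In the CaMK2a line after PBS, 10 of 28 members tested were higher in IP and 7 were lower, beside 32.6% and 31.6% of all genes. The higher members included all 3 measured kinesin-2 motors, 3 of 4 kinesin-4 members, and the kinesin-1 heavy chains Kif5b and Kif5c. Of these, Kif4 of kinesin-4 was tested only through its IP counts. The lower members were the kinesin-3 motors Kif13b, Kif13a and Kif1a, both kinesin-11 genes, Kif24 and Kif5a. Of these, Kif26a of kinesin-11 and Kif24 were tested only through their input counts. The median log2 fold change of the members tested was -0.11, beside -0.01 for all genes. With upper-quartile factors the median of all genes moved to -0.13 in this comparison, to -0.15 after kainic acid and to 0.13 in the difference between the lines, and the share of higher among all calls in the PV line after kainic acid went from 62.5% to 50.9%.

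Kif21a (chromosome 15, 90933275 to 91049953, minus strand) was higher in IP in both lines. In CaMK2a libraries after PBS it was at 355, 366 and 349 CPM in IP and at 159, 152 and 153 CPM in input, a log2 fold change of 1.22 ± 0.06 (SE, adjusted p = 1.8e-11). In PV libraries after PBS it was at 874, 984, 943 and 616 CPM in IP and at 293, 279, 266 and 173 CPM in input, with 1.79 ± 0.19 (adjusted p = 1.9e-05). Its 8 IP values after kainic acid and PBS in the PV line, 516 to 1092 CPM, were above all IP values of the CaMK2a line, 271 to 366 CPM.

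Among heavy chains of kinesin-1, Kif5b and Kif5c were higher in CaMK2a IP and Kif5a was lower. Kif5a was at 1332, 1401 and 1295 CPM in IP and at 1764, 1685 and 1769 CPM in input, with -0.35 ± 0.05 (SE, adjusted p = 2.4e-05). Kif5c was at 1429, 1409 and 1403 CPM in IP and at 995, 979 and 944 CPM in input, with 0.56 ± 0.05 (adjusted p = 5.9e-08). Kif5b had 0.61 ± 0.06 (adjusted p = 1.1e-07). In the PV line Kif5a went the other way, at 2336, 2192, 2367 and 2270 CPM in IP and 1854, 1810, 1623 and 1743 CPM in input. Its log2 fold change was 0.42 ± 0.12 (adjusted p = 0.024), which was lost without PBS IP replicates 1 or 3 or input replicates 1, 2 or 3 (adjusted p 0.058 to 0.095) and was 0.42 with adjusted p = 0.00012 with the replicate number as a block. Kif5c did not pass in the PV line, at 0.17 ± 0.14 (adjusted p = 0.43). The light chain Klc1 passed in neither line, with 0.08 ± 0.06 and 0.04 ± 0.17.

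The kinesin-2 motors were higher in CaMK2a IP. Kif3a was at 413, 386 and 437 CPM in IP and at 217, 192 and 185 CPM in input after PBS, with 1.08 ± 0.07 (SE, adjusted p = 4.9e-10). Kif3c and Kif17 had 0.45 ± 0.06 (adjusted p = 2.1e-06) and 0.63 ± 0.14 (adjusted p = 0.0009). In the PV line Kif3a had 0.49 ± 0.19 (adjusted p = 0.096), and passed with the replicate number as a block at 0.50 (adjusted p = 0.00036) and without PBS IP replicate 4 at 0.62 (adjusted p = 0.023). Kif17 was at 12.4, 7.28, 4.95 and 12.4 CPM in PV IP and at 15.5, 10.98, 13.8 and 15.3 CPM in PV input, with -0.55 ± 0.34 (adjusted p = 0.3).

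In kinesin-3, Kif13b, Kif13a and Kif1a were lower in CaMK2a IP after PBS. Kif13b, a motor that binds guanylate kinase scaffold proteins, was at 5.34, 5.27 and 6.03 CPM in IP and at 19.2, 17.0 and 16.9 CPM in input, with -1.66 ± 0.17 (SE, adjusted p = 1.9e-07). Kif1a had -0.39 ± 0.05 (adjusted p = 6.8e-06) and Kif13a -0.57 ± 0.16 (adjusted p = 0.0049). Kif1b was level, at -0.00 ± 0.05 (adjusted p = 0.96). Kif16b, which moves early endosomes, was higher at 1.05 ± 0.20 (adjusted p = 2e-04). In PV IP, Kif13b varied widely between pools, at 38.5, 17.8, 10.1 and 9.00 CPM, beside 22.6, 18.8, 19.8 and 16.2 CPM in input.

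Kif26b and Kif26a were lower in CaMK2a IP than in input after PBS, with -0.84 ± 0.15 (SE, adjusted p = 9.9e-05) and -1.34 ± 0.42 (adjusted p = 0.0098). Kif26a had too few counts in CaMK2a IP to be tested there for kainic acid. It entered the comparison with input through its input libraries, so its size and p-value are not independent of the filter. In the PV line Kif26b had 0.19 ± 0.24 (adjusted p = 0.63) and Kif26a 0.11 ± 0.72 (adjusted p = 0.94). Kif2a was at 237, 233 and 247 CPM in CaMK2a IP and at 120, 117 and 114 CPM in input, with 1.05 ± 0.06 (adjusted p = 1.2e-10), and in the PV line it had 0.11 ± 0.15 (adjusted p = 0.67). Kif24, which restrains cilium growth, was lower in CaMK2a IP at -1.33 ± 0.53 (adjusted p = 0.035) from 15 and 36 counts. It met the count filter only through input, so a lower IP was a condition of being tested. The Kif24 call was lost with the replicate block (0.063), with no filter on low counts (0.077), with DESeq2 (0.12), and without IP replicates 1 or 3 or input replicates 1 or 2 (adjusted p 0.088 to 0.13).

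Kif4 and Kif27 were also higher in CaMK2a IP after PBS, at 1.62 ± 0.48 (SE, adjusted p = 0.0078) and 1.25 ± 0.32 (adjusted p = 0.0024). Kif4 met the count filter there only through its IP libraries. A higher IP was thus a condition of its being tested, and its size and p-value are not independent of the filter. Genes of other cells set part of the input: the 4 astrocyte markers summed to 6960 to 7140 CPM in CaMK2a input and 1260 to 1900 CPM in IP, all 4 passing as lower in IP, and the 6 microglial markers to 398 to 426 and 36.3 to 54.9 CPM. The 7 PV interneuron markers summed to 816 to 868 CPM in input and 193 to 246 CPM in IP, and all 7 passed as lower. The part of these cells in the kinesin differences was not tested.

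In the PV line after PBS, 2 of 27 members tested were higher in IP, Kif21a and Kif5a, and 0 were lower, beside 10.6% and 7.98% of all genes. IP and input of a number come from 1 lysate pool, and with that number as a block 5 were higher: Kif1a at 0.24 (adjusted p = 0.017) and Kif5b at 0.35 (adjusted p = 0.016) joined Kif21a, Kif5a and Kif3a. Over all genes the block gave 1771 higher and 1599 lower in place of 1183 and 894. Klc4 was at a log2 fold change of 1.01 ± 0.36 (SE, adjusted p = 0.07), and passed with DESeq2 at 1.00 (adjusted p = 0.031). Kif19a, a kinesin-8 motor that limits the length of cilia, passed as lower without PV IP replicate 4 (-3.15, adjusted p = 0.025), and in the CaMK2a line without IP replicate 2 (-1.70, adjusted p = 0.0083). The median over the tested members was 0.18 in PV, beside 0.02 for all genes.

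After kainic acid most of the same members passed in the CaMK2a line. There 10 of 27 members tested were higher in IP and 8 lower, beside 24.3% and 25.8% of all genes. Of the 10 members higher in IP after PBS and the 10 after kainic acid, 9 were the same, and of the 7 and 8 lower members 6 were the same. Kif18a was higher at 1.97 ± 0.46 (SE, adjusted p = 0.0038), but it had too few counts to be tested after PBS (20 in IP and 17 in input) and entered the kainic acid test through its 160 counts in IP, so its IP difference cannot be compared with that after PBS. Kif3c did not pass after kainic acid, at 0.18 ± 0.13 (adjusted p = 0.25). Kif19a and Klc3 passed as lower after kainic acid and not after PBS (-1.01, adjusted p = 0.085, and -0.35, adjusted p = 0.46), a difference that was not tested. Their calls rest on 12 and 62 and on 15 and 42 counts in IP and input. Both genes met the count filter only through input. A lower IP was thus a condition of being tested, and their sizes and p-values are not independent of the filter. Kif19a had -2.42 ± 0.69 (adjusted p = 0.012), which was -3.17 without IP replicate 1 and -1.79 without IP replicate 3, and Klc3 -1.63 ± 0.56 (adjusted p = 0.03).

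Kif27 was at 12.0, 15.7 and 12.99 CPM in CaMK2a IP after kainic acid and at 3.34, 3.73 and 1.07 CPM in input, with 2.26 ± 0.36 (SE, adjusted p = 0.00031). Several of these calls were lost when 1 library was left out. Kif1a lost its call without any kainic acid IP replicate or input replicates 1 or 3 (0.057 to 0.095), and Kif5a without IP replicates 2 or 3 or input replicates 1 or 3 (0.054 to 0.09). Kif26a, as after PBS, was tested only through its input counts. It was at -2.22 ± 0.66 (adjusted p = 0.015) with all libraries and -3.83 without IP replicate 2, and lost its call without IP or input replicate 3 (0.051 and 0.072). Kif4 lost its call without IP replicate 3 or input replicate 1 (0.065 and 0.051), and Kif19a without input replicate 1 (0.059). Klc3, a light chain that shares 744 exonic bases with Ercc2 on the opposite strand, lost it without IP replicates 1 or 2 or input replicates 2 or 3 (0.063 to 0.12), with no filter (0.057) and with DESeq2 (0.065). In the PV line after kainic acid, 1 of 31 members tested was higher, Kif21a at 2.04 ± 0.27 (adjusted p = 0.00026), and 0 were lower, beside 6.85% and 4.11% of all genes. With the replicate number as a block Kif1a, Kif3a, Kif5a and Kif5b also passed as higher, at 0.31, 0.50, 0.33 and 0.41 (adjusted p 0.026, 0.039, 0.021 and 0.028), while over all genes it gave 1313 higher and 1082 lower in place of 767 and 460. Klc4 passed there without PV kainic acid IP replicate 1 at 1.99 (adjusted p = 0.033).

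The IP to input difference itself was compared between the lines after PBS. This fit had 1 common biological coefficient of variation, 27.5%, for both lines. IP against input had 8.48% with CaMK2a fitted alone and 34.2% with PV fitted alone. The p-values of the difference thus use a common spread above that of CaMK2a and below that of PV. Calls of genes that vary widely between PV pools, such as Kif13b, are therefore less certain. Of 30 members tested, 4 were relatively higher in the PV line and 2 relatively lower, beside 13.3% and 14.3% of all genes. The vesicle motors Kif5a and Kif1a were relatively higher in PV, by 0.72 ± 0.13 (SE, adjusted p = 0.00055) and 0.58 ± 0.14 (adjusted p = 0.0043) on the log2 scale. Kif13b was higher by 1.60 ± 0.53 (adjusted p = 0.033) and Kif26b by 0.96 ± 0.34 (adjusted p = 0.041). Kif2a and Kif17 were relatively lower, at -0.99 ± 0.18 (adjusted p = 0.00061) and -1.23 ± 0.40 (adjusted p = 0.029). Kif5a, Kif1a and Kif2a kept their calls with each library left out.

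The other 3 did not. Kif13b lost its call without 8 of the 14 libraries: PV input replicates 2 or 3, or any of the 6 CaMK2a libraries (adjusted p 0.051 to 0.076), and its difference was 0.98 (adjusted p = 0.043) without PV IP replicate 1. Kif17 lost it without 6, PV input replicate 1, CaMK2a IP replicates 1 or 3, or any CaMK2a input replicate (0.051 to 0.084). Kif26b lost it without 8, PV IP replicate 3, PV input replicates 1, 3 or 4, CaMK2a IP replicates 1 or 3, or CaMK2a input replicates 1 or 2 (0.054 to 0.12). With the replicate block 11 members differed: Kif13a (0.80, adjusted p = 0.04) and Kif21a (0.52, adjusted p = 0.0011) were relatively higher in PV as well, and Kif3a (-0.63, adjusted p = 0.00072), Kif3c (-0.59, adjusted p = 0.0053) and Kif5c (-0.44, adjusted p = 0.0012) relatively lower. Over all genes the block gave 1920 higher and 2300 lower in place of 1559 and 1677. Leaving out PV input replicate 4 brought in Kif26a (2.52, adjusted p = 0.031), Kif13a (0.87, 0.046), Kif3a (-0.79, 0.006), Kif5b (-0.47, 0.019) and Kif5c (-0.52, 0.008). Leaving out PV IP replicate 2 brought in Kif3a (-0.75, 0.041), Kif5c (-0.50, 0.029) and Klc4 (1.31, 0.04), and PV IP replicate 4 Kif13a (0.96, 0.018) and Kif21a (0.64, 0.021). Kif4 passed without PV IP replicate 3 (-2.63, 0.022), Kif13a without CaMK2a IP replicate 2 (1.04, 0.025) and Klc4 without CaMK2a input replicate 3 (1.40, 0.048).

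Glial markers were depleted less in PV IP than in CaMK2a IP: the 4 astrocyte markers had a median of 1.64 and the 4 oligodendrocyte markers of 2.12 in the same comparison, all 8 relatively higher in PV. The part of these markers in the kinesin differences was not tested.

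**Figure D5:**
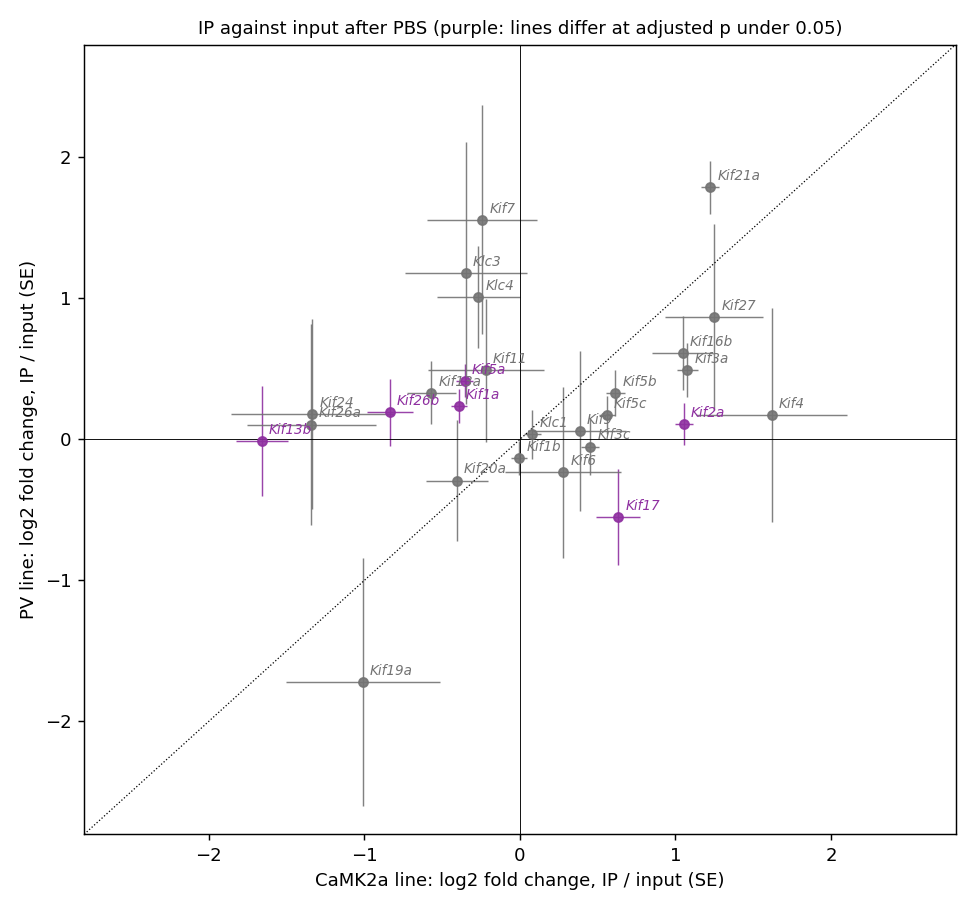
Log2 fold change of IP against input after PBS in the CaMK2a line (horizontal) and the PV line (vertical) with SE for the kinesin genes tested in both, the dotted line marking equal values. The 6 genes in purple differ between the lines: Kif5a, Kif1a, Kif13b and Kif26b lie above the line, Kif2a and Kif17 below it.

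Partners of the kinesins were counted from lists. Of 21 measured cargo adaptors and regulators, 4 rose and 1 fell after kainic acid in CaMK2a IP (median log2 fold change 0.07), beside 19.8% and 15.3% of all genes. In CaMK2a IP against input after PBS 10 of them were higher and 8 lower (median 0.13), beside 32.6% and 31.6% of all genes. In PV IP against input after PBS 6 were higher and 0 lower (median 0.25), beside 10.6% and 7.98% of all genes. Of the dynein and dynactin genes, which form the motor of the opposite direction, 14 of 23 tested were higher and 5 lower in CaMK2a IP than input after PBS (median 0.27, all genes 32.6% and 31.6%). In PV IP 3 of 24 were higher and 1 lower (median -0.05, all genes 10.6% and 7.98%). After kainic acid in CaMK2a IP, 3 of 23 dynein and dynactin genes rose and 4 fell (median 0.04, all genes 19.8% and 15.3%). Of 23 tubulin and microtubule-associated protein genes 4 rose and 5 fell there (median -0.15), beside the same shares of all genes. In PV IP against input after PBS 1 was higher and 7 lower (median -0.22), beside 10.6% and 7.98% of all genes.

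The remaining kinesin genes were low. Kif6, Kif7, Kif9 and Kif20a were tested in every comparison of 2 groups and passed in none, with means of 1.16 to 10.8 CPM over the groups. Kif14, Kif18b, Kif20b, Kif22 and Kif23 had group means of at most 2.36 CPM and passed in none of the comparisons in which they were tested. Kif2c had a group mean of at most 0.355 CPM, was missing from 1 of the 6 tables, and was not tested. Klc2, Kif1c, Kif3b and Kif21b were not analysed here.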

How the data were processed

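Members, gene lists and tests were chosen with earlier results of these data known. The deposited values are whole-number counts of reads per coding gene and library. Per the submitters' processing notes, reads were aligned with BWA to mm10 (GRCm38) and analysed with edgeR, versions not given in the sources used here. Per the labels' protocols, RNA (20 ng in the CaMK2a line, 2.5 ng in the PV line) was amplified before library preparation. No source used here says whether counting used strand, and reads of a gene and its antisense partner are then mixed: 13 of the 34 kinesin genes share exonic bases with such a partner in GENCODE M21. Tables of higher and lower genes were joined into 6, and of 189281 counts that tables share, 0 differ.

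Groups follow the labels. The main test was the edgeR 4.0.16 quasi-likelihood test in R 4.3.3, run on the deposited counts with TMM factors, genes kept by filterByExpr (minimum count 10), prior count 0.125, and p-values adjusted over all genes tested by Benjamini-Hochberg. "Rose", "fell", "higher" and "passed" mean adjusted p under 0.05. SE is the size of the log2 fold change divided by the root of F. CPM uses TMM factors over all 28 libraries, whose totals are 6061405 to 15847462 counts. P-values measure the spread between pools.

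The alternatives were 2 other sets of scaling factors (relative log expression, upper quartile), no filter on low counts, DESeq2 1.42.0, the replicate number as a block, each library left out, and, chosen after seeing the data, PV replicates 1 to 3 only. IP and input of a number share a lysate pool by the protocol. The main test used no block in any comparison, so its p-values use neither these shared pools nor the pairing described next. Kainic acid and PBS pools were taken as paired in PV input, where deviations of same-numbered libraries correlated at 0.143 to 0.616, and as not paired elsewhere. This pairing is uncertain, since it was read from the counts. The value of 0.616 is that of replicate 4, and kainic acid replicate 2 correlated best with PBS replicate 1. In PV IP replicate 4 reached 0.362 and the other replicates 0.035 to 0.053. Named were members that passed, up to 10 in each direction, and a set of transport motors given in the rule, with Kif26b first.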

Additional observations from a re-analysis of the deposited data

Results flagged for a closer look

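In 100 groups of 4 PV libraries tested for 1 value far from the rest, 12 were marked. The cut-off marks about 1 in 20 by chance for values with a normal spread. That rate does not hold for counts near 0, so the 12 cannot be set against it. Where all other libraries hold 0, as for Kif2c, any read in 1 library is marked. After PBS in PV input, replicate 4 stood apart for Kif11 (4.04 CPM, others 2.11 to 2.25), Kif26a (8.31 CPM, others 1.12 to 2.05), Kif5b (164.7 CPM, others 252.2 to 266.5) and Kif2c (0.0792 CPM, others 0). After kainic acid in PV IP, replicate 4 stood apart for Kif21a (515.8 CPM, others 1002 to 1092) and Klc1 (470.3 CPM, others 284.8 to 299.7). In PV IP after PBS, Kif19a was at 2.31 CPM in replicate 4 (others 0.168 to 0.391), Kif4 at 3.86 CPM in replicate 3 (others 0.592 to 0.720) and Klc3 at 14.0 CPM in replicate 1 (others 0.252 to 1.51). Kif26b was at 24.2 CPM in PV kainic acid IP replicate 1 (others 13.9 to 15.5), still below every PBS library of that fraction. Kif2c was at 0.0940 CPM in PV kainic acid IP replicate 2 and at 1.05 CPM in PV kainic acid input replicate 2, with the others at 0.

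The IP to input difference after PBS was not the same in the 2 lines for 6 members by the test of the difference: Kif13b (1.60), Kif1a (0.58), Kif26b (0.96) and Kif5a (0.72) were relatively higher in the PV line, and Kif17 (-1.23) and Kif2a (-0.99) relatively lower, on the log2 scale. That test did not use the shared lysate pools. With the replicate number as a block 11 members differed, and over all genes 1920 were higher and 2300 lower in place of 1559 and 1677. Without the block, Kif13b, Kif17 and Kif26b lost their calls without any 1 of 8, 6 and 8 of the 14 libraries.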

How the results depend on the processing

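Of 61 calls of a named kinesin gene in a comparison, 43 held in every alternative and 18 were lost in at least 1; 0 changed direction. Of 170 that did not pass, 32 passed in at least 1 alternative. Counts of kinesin genes called moved most in the PV line. With the replicate block they were 4 in place of 1 for kainic acid in PV IP and 5 in place of 2 for IP against input after PBS. They were 5 in place of 1 after kainic acid and 11 in place of 6 for the difference between the lines. For kainic acid in PV IP, where the pools were not taken as paired, the block added Kif18a, Kif1b and Kif13a. Over all genes it gave 651 higher and 248 lower there in place of 450 and 89. In CaMK2a IP the block ended the calls of Kif1a (adjusted p = 0.065) and Kif27 (0.059). Apart from these and those given beside their results, the block changed no call of a named gene. With PV replicates 1 to 3 only the counts of kinesin genes were 4, 4, 3 and 13. Over all genes these replicates gave 577 higher and 178 lower for kainic acid in PV IP, in place of 450 and 89. For IP against input they gave 1431 and 1168 after PBS in place of 1183 and 894. After kainic acid they gave 1064 and 642 in place of 767 and 460. For the difference between the lines they gave 2228 and 2132 in place of 1559 and 1677. DESeq2 gave 3 for kainic acid in PV IP and 2 for PV IP against input after kainic acid. Over all genes DESeq2 gave 662 higher and 209 lower in the former and 1031 and 719 in the latter. Leaving out 1 library gave, after kainic acid, 4 to 10 in CaMK2a IP (7 with all), 3 to 7 in CaMK2a input (5), 1 to 2 in PV IP (1) and 2 to 4 in PV input (4). For IP against input in the PV line it gave 1 to 4 after PBS (2) and 1 to 2 after kainic acid (1). For the difference between the lines it gave 3 to 10 (6). Calls over all genes moved as well. For kainic acid in CaMK2a IP they were 1479 to 2318 higher (2111 with all) and 979 to 1924 lower (1633). In PV IP only Kif26b was called after kainic acid with all libraries. Where a library was left out, fewer samples were tested; the cause of other changes was not tested. Members near 1 CPM rest on few counts (20 over 3 libraries for Kif18a in CaMK2a IP after PBS), which limits what could be detected there.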
